A study of Caenorhabditis elegans with 2 samples.

Results

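The genes described here encode the small GTPases and coat subunits that route membrane between compartments, and the vacuolar protein sorting (VPS) proteins that act with them. They were chosen by gene symbol: every protein-coding gene of the Ensembl annotation of Caenorhabditis elegans whose symbol starts with rab-, arf-, arl-, vps-, apa-, apb-, apd-, apg-, apm-, aps- or apt-. This gave 71 of 19973 protein-coding genes on the nuclear chromosomes, in 4 families: 20 Rab genes, 9 Arf and Arl genes (3 arf and 6 arl), 31 VPS genes and 11 adaptor genes. The measurement was chromatin immunoprecipitation sequencing of C04F5.9, a protein tagged with GFP and FLAG at its C terminus, in 2 biological replicates that form 1 group. All animals were hermaphrodite first-stage (L1) larvae of strain OP525, genotype unc-119(tm4063) III; wgIs525, collected 6 hours after synchronisation by bleaching and starvation. Both replicates came from this 1 transgenic line and from whole larvae, so tissues cannot be told apart, and no second genotype, stage or treatment was compared. The antibody recognised GFP.

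Rab, Arf and Arl proteins are GTP-binding switches: in their GTP-bound form they sit on a membrane and recruit tethers, coats and motors. Adaptor complexes link clathrin to cargo at the trans-Golgi, the plasma membrane and endosomes. VPS proteins were named from yeast mutants that missort vacuolar proteins, and they form several machines: the HOPS, CORVET, GARP and EARP tethers, the retromer, and the ESCRT complexes, which bud vesicles into multivesicular bodies and cut membrane necks. All of these functions are used in nearly every cell type.

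Region lists in ce11 coordinates were read, 4 in all. The optimal list held the 1205 regions that passed the authors' threshold on agreement between replicates. The combined list held 30000 regions from both replicates, the replicate 1 list 30000 and the replicate 2 list 28005. These 3 lists were relaxed and include background. Regions were ranked in each list by the authors' signal value, with rank 1 the highest, and the 1205 optimal regions were the first 1205 of the combined list. Read depth is unknown. For each gene the distance ran from a region's summit to the nearest annotated transcript 5′ end, negative when the summit lay upstream. A gene with an optimal summit within 500 bp of a 5′ end is called bound below, a term of distance only. Many worm mRNAs are trans-spliced, so an annotated 5′ end need not be where transcription starts.

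Of the 71 genes, 10 were bound (14.1%, exact 95% binomial interval 6.97 to 24.4%), against 5.51% of all protein-coding genes. They were 7 VPS genes (vps-51, vps-4, vps-37, vps-60, vps-2, vps-25 and vps-33.2), the adaptor genes apb-1 and aps-1, and rab-18. No Arf or Arl gene was bound. The 7 VPS genes were 22.6% of that family (interval 9.59 to 41.1%), the 2 adaptor genes 18.2% (2.28 to 51.8%) and rab-18 5% of the Rab genes (0.127 to 24.9%). The family intervals overlap one another, and they cover counting error only. No test was run on these counts.

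**Figure D1:**
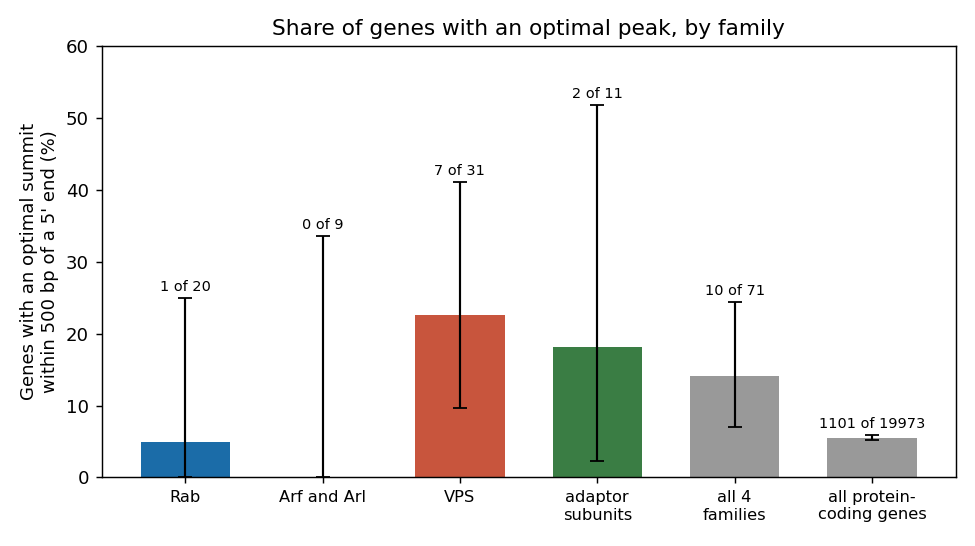
Bars show the percentage of genes in each family with an optimal summit within 500 bp of an annotated 5′ end, error bars the exact 95% binomial interval, and labels the counts. The VPS bar (7 of 31) is the tallest of the 4 families, the Arf and Arl bar is at 0 of 9, and all protein-coding genes are at 5.51%.

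The sequences under 6 of these peaks are given here as examples. That under the peak at vps-22 is added, although its summit was just outside the window and vps-22 is not called bound. Each line gives the summit base with 50 bases on either side, 5′ to 3′ on the strand of the named gene, from the RefSeq assembly WBcel235 (the same assembly as ce11). Capitals mark 4 words: AGACGCAG, GCAAACAC, GCTGGCGC and CGCGC, or their reverse complements. The words were chosen as frequent at summits relative to flanks in the optimal peaks away from these genes.
rab-18, chrIII:1080715-1080815, minus strand: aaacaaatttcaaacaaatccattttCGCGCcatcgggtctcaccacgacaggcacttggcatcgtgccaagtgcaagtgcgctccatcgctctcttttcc
aps-1, chrV:6017764-6017864, plus strand: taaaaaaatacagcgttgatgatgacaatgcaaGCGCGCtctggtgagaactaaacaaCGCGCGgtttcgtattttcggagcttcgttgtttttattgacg
vps-37, chrV:5592435-5592535, plus strand: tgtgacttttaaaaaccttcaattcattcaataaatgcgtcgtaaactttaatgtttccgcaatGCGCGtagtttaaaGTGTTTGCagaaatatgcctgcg
vps-60, chrV:8606391-8606491, minus strand: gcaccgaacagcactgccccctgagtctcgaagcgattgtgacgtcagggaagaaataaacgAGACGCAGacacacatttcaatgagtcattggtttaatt
vps-2, chrII:12768569-12768669, minus strand: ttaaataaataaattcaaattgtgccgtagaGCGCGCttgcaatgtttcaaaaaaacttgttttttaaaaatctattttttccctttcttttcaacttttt
vps-33.2, chrII:6601160-6601260, plus strand: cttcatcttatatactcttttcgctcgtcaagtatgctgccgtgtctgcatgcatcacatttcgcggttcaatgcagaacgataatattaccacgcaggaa
vps-22, chrIII:4963082-4963182, minus strand: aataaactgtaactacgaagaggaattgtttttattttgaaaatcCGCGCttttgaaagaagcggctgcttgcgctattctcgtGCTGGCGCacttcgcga

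The vps-2 window was 25.7% GC and the rab-18 window 50.5% GC. The aps-1 window held GCGCGC on one side of the summit and CGCGCG on the other.

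There were 11 optimal peaks at the 10 genes, because vps-25 had a peak at each of its 2 annotated 5′ ends. Their ranks ran from 172 to 1051 with a median of 661, against a median of 552.5 for the 818 optimal peaks within 500 bp of any protein-coding 5′ end. By the nearest peak, 9 of the 10 genes had the summit upstream of the 5′ end, as did 92.5% of all 1101 bound genes. The median position was -209 bp, against -175 bp over all bound genes.

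The bound VPS genes were mostly genes of the ESCRT machinery. Of the 11 ESCRT genes of the list found in the annotation, 5 were bound (45.5%), and 7 had an optimal summit within 1000 bp, where all protein-coding genes reached 6.89%. The list of complexes was drawn up with earlier results of these data known, so this count describes the group and is no separate evidence. All 11 genes carry vps- symbols, so the share holds for ESCRT genes that the symbol rule admits. A separate list of ESCRT and clathrin partners counted 2 bound of 19 (10.5%), against 5.51% of all protein-coding genes. These were dyn-1 and dpy-23, which encode dynamin and an adaptor subunit. The bound ESCRT genes came from several steps of the pathway: vps-37 from ESCRT-I, vps-25 from ESCRT-II, vps-2 and vps-60 from ESCRT-III, and vps-4, the ATPase that takes ESCRT-III filaments apart.

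For vps-4 (WBGene00021334, chromosome I) the optimal peak ranked 514 and its summit lay 272 bp upstream of the 5′ end, in an intergenic stretch with no other protein-coding 5′ end within 500 bp. The overlapping regions ranked 570 in replicate 1 and 474 in replicate 2. At vps-25 (WBGene00012193, chromosome I) the peak nearer a 5′ end ranked 973, with its summit 33 bp upstream of the long transcript and 280 bp from the divergent gene uba-2, which encodes a subunit of the SUMO-activating enzyme. The other vps-25 peak was stronger, at rank 357, and lay 62 bp upstream of the inner 5′ end, in an intron of the long transcript. It ranked 375 in replicate 1 and 413 in replicate 2, so the inner 5′ end carried the higher-ranked region in both replicates and in the optimal list.

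The peak of vps-37 (WBGene00016990, chromosome V) ranked 757, with its summit 215 bp upstream. It ranked 1053 in replicate 1 and 577 in replicate 2. That of vps-60 (WBGene00018290, chromosome V) ranked 860 and lay 313 bp upstream. Its replicates were the furthest apart of the 11 peaks, at 1579 in replicate 1 and 473 in replicate 2. The peak of vps-2 (WBGene00012903, chromosome II) ranked 918, and 783 and 1373 in the replicates. Its summit was 402 bp from the vps-2 5′ end but 67 bp from that of tiar-2, a divergent gene for an RNA-binding protein, and in replicate 2 the summit lay 150 bp away from the optimal one.

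The next ESCRT genes fell just outside the 500 bp window, and there another gene was nearer. At vps-22, an ESCRT-II gene, the optimal peak ranked 161, above every bound gene in these families, and it ranked 165 and 163 in the replicates. Its summit was 639 bp upstream of vps-22 and 88 bp upstream of C27F2.9, a gene on the same strand with no gap between its annotated span and that of vps-22. At vps-32.1, an ESCRT-III gene, the peak ranked 363 (289 and 550 in the replicates). It lay 673 bp upstream of vps-32.1 and 380 bp upstream of icd-1, which encodes a subunit of the nascent polypeptide-associated complex. The summit fell in exons of the non-coding RNA genes C56C10.14 and C56C10.15. For the other ESCRT genes the nearest optimal summit was at least 5029 bp away (vps-36). Their best combined regions within 500 bp ranked 7645 (vps-36), 12852 (vps-20), 19439 (vps-28) and 20071 (vps-24).

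**Figure D2:**
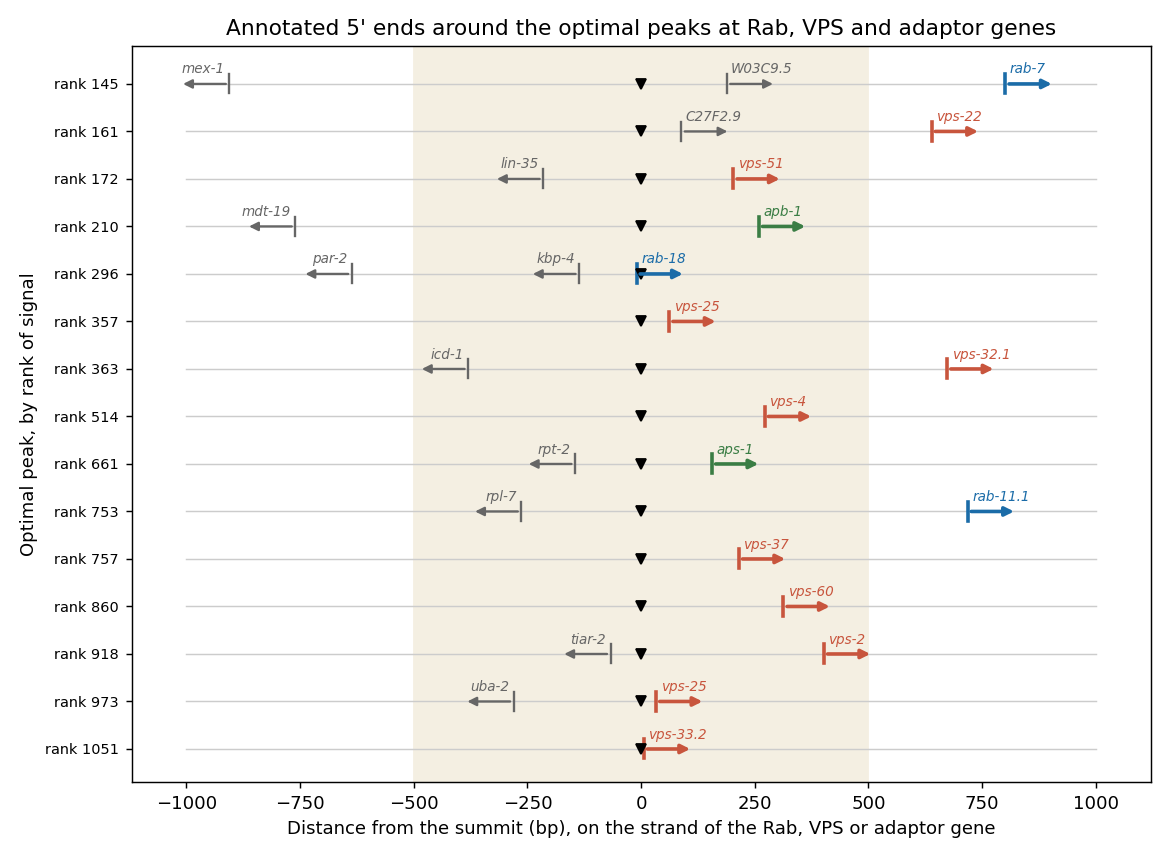
Each row is an optimal peak within 1000 bp of a Rab, VPS or adaptor gene, ordered by rank, with the summit (black triangle) at 0. Arrows mark annotated 5′ ends of protein-coding genes and point along transcription (members coloured by family, others grey), drawn so that the member points right, and the shaded band is the 500 bp window. Members at 4 peaks (rab-7, vps-22, vps-32.1 and rab-11.1) lie beyond the band, and at each of these another gene lies inside it.

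Among the tethers, 1 of 5 GARP and EARP genes and 1 of 8 HOPS and CORVET genes were bound, against 5.51% of all protein-coding genes, and the difference from the ESCRT genes was not tested. The strongest peak of any bound gene, at rank 172 (chromosome I, 5807302 to 5807685), lay at vps-51 (WBGene00015176), a subunit shared by the GARP and EARP tethers of endosome-to-Golgi transport and recycling. It ranked 213 in replicate 1 and 119 in replicate 2. Its summit was 203 bp upstream of vps-51 and 215 bp upstream of lin-35, the divergent gene for the worm retinoblastoma protein, so distance hardly separated them. Of the other 4 tether genes of this group none was bound. Their best combined regions ranked 6306 (vps-50), 8795 (vps-52) and 13655 (vps-53), and vps-54 had none within 500 bp.

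Among 8 genes listed under the HOPS and CORVET tethers, which act at endosomes and lysosomes, vps-33.2 (WBGene00016960, chromosome II) was bound. Its peak was the weakest of the 11, at rank 1051, and ranked 1090 and 1593 in the replicates. The summit lay 6 bp upstream of the vps-33.2 5′ end, inside an intron of epg-5, an autophagy gene on the opposite strand. For vps-16 the nearest optimal summit, at rank 717, was 1307 bp upstream. The best combined regions were at rank 4027 for vps-18, 5367 for vps-39, 7003 for vps-8 and 8935 for vps-33.1, and vps-11, vps-16 and vps-41 had none within 500 bp.

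The retromer returns receptors from endosomes to the Golgi. None of its 3 genes was bound, against 5.51% of all protein-coding genes, and with so few genes this was not tested. Its vps-35 came nearest, with a combined region at rank 2502, 81 bp upstream, whose overlapping regions ranked 3795 in replicate 1 and 1609 in replicate 2. The combined regions at vps-26 and vps-29 ranked 7329 and 19564. The lipid kinase genes vps-34 and vps-15 were not bound. At vps-34 no list had a summit within 500 bp, and at vps-15 the best combined region ranked 25474.

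In the adaptor family the bound genes belong to the clathrin adaptors of the Golgi and plasma membrane. The apb-1 gene (WBGene00000160, chromosome III) encodes a beta subunit, and its peak ranked 210, with 226 and 199 in the replicates. The summit lay 259 bp upstream, and in the replicates it shifted by 2 and 0 bp. The aps-1 gene (WBGene00000159, chromosome V) encodes the small subunit of adaptor complex 1. Its optimal peak ranked 661, with 535 and 1242 in the replicates. The summit lay 156 bp upstream of aps-1 and 145 bp upstream of rpt-2, the divergent gene for a proteasome ATPase. It fell in an exon of the non-coding RNA gene F29G9.10. A weaker combined region, at rank 3571, was nearer to the aps-1 5′ end, 120 bp downstream of it. Of 6 genes listed under adaptor complexes 1 and 2, 2 were bound, against 5.51% of all protein-coding genes. Of 4 listed under adaptor complex 3, which serves lysosome-related organelles, none was. These groups are small, and the difference between them was not tested.

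The unbound adaptor genes differed in how near they came. Regions at aps-3 and apm-3, both of adaptor complex 3, ranked 2188 and 3246 in the combined list. The aps-3 region ranked 695 in replicate 2 and 10000 in replicate 1, and the apm-3 region 6475 and 6448, so the replicates differed at aps-3 and had close ranks at apm-3. The others with a region ran from rank 5163 (apm-1) to 16291 (apb-3). The apd-3 and apt-9 genes had no summit within 500 bp in any list.

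Among the Rab genes only rab-18 (WBGene00004277, chromosome III) was bound under the 500 bp rule. That is 5% of the family, close to the 5.51% of all protein-coding genes. RAB18 is known in mammals from lipid droplets and the endoplasmic reticulum. Its peak ranked 296, and 256 and 460 in the replicates. The gene has 4 annotated 5′ ends: the summit lay 10 bp downstream of the outermost, in the 5′ UTR, and upstream of the other 3. The 5′ end of kbp-4, a divergent kinetochore gene, was 136 bp away.

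The optimal peaks nearest to 2 well-known endosomal Rab genes belonged, by distance, to other genes. At rab-7, the late endosome GTPase, the peak ranked 145 (179 and 117 in the replicates). It was 801 bp upstream of rab-7 and 188 bp upstream of W03C9.5, a gene on the same strand with no gap between its annotated span and that of rab-7. At rab-11.1, the recycling endosome GTPase, the peak ranked 753 (657 and 959 in the replicates), 718 bp upstream of rab-11.1 and 263 bp upstream of the ribosomal protein gene rpl-7.

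Several Rab promoters held regions below the optimal list. The best combined regions within 500 bp ranked 1395 at rab-14, 2156 at rab-11.1, 2332 at rab-30, 2385 at rab-1, 3055 at rab-5 and 3608 at rab-7. At rab-14 the overlapping regions ranked 1395 in replicate 1 and 2762 in replicate 2, and at rab-5, the early endosome GTPase, 3520 and 7501. At rab-1, the GTPase of transport from the endoplasmic reticulum to the Golgi, the overlapping regions ranked 1524 and 19552, and the best replicate 2 region within 500 bp was another one, at rank 4613 and 390 bp downstream. At rab-7 the overlapping regions ranked 14936 and 986. The other 7 unbound Rab genes with a combined region ranked from 7134 (rab-10) to 20414 (rab-6.2). The 6 Rab genes with no combined summit within 500 bp were rab-6.1, rab-8, rab-11.2, rab-21, rab-28 and rab-37.

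Within the Arf and Arl family the 3 arf genes and the 6 arl genes had regions of different rank in the relaxed lists. ARF proteins recruit coats at the Golgi and the plasma membrane. All 3 arf genes had a combined region within 500 bp, at ranks 1808 (arf-6), 3183 (arf-5) and 7852 (arf-1). Each lay upstream of an annotated 5′ end. At arf-1, which has 2 such ends, this was the inner one, and the region lay inside the gene, downstream of the outermost. The arf-6 region ranked 831 in replicate 2, inside the first 1205, and 6036 in replicate 1. Of the arl genes, 3 had a combined region (arl-13, arl-3 and arl-5), at ranks 12748 to 22862. At arl-1 and arl-6 no list had a summit within 500 bp. The nearest optimal summits to any gene of the family were 2833 bp from arl-5 and 3744 bp from arl-13. These groups hold 3 and 6 genes, and the difference was not tested.

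Over all 4 families the relaxed lists reached most promoters. A combined summit lay within 500 bp for 55 of the 71 genes (77.5%), against 37.8% of all protein-coding genes. In replicate 1 it was 56 genes, against a background of 37.4%, and in replicate 2 47 genes, against 36.5%. By family, the combined list reached 26 of 31 VPS genes, 9 of 11 adaptor genes, 14 of 20 Rab genes and 6 of 9 Arf and Arl genes. The counts in the 2 replicates were equal for the adaptor genes (9 and 9) and the Arf and Arl genes (6 and 6). The Arf and Arl genes were not all the same ones, as replicate 1 alone reached arl-5 and replicate 2 alone arl-8. The Rab genes had 15 in replicate 1 and 10 in replicate 2. The median distance to the nearest combined summit was 188 bp, against 989 bp over all genes, and the median distance to the nearest optimal summit 16840 bp, against 33687 bp. Of the 55 nearest combined summits, 31 were upstream (56.4%), close to the 58.5% over all genes.

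**Figure D3:**
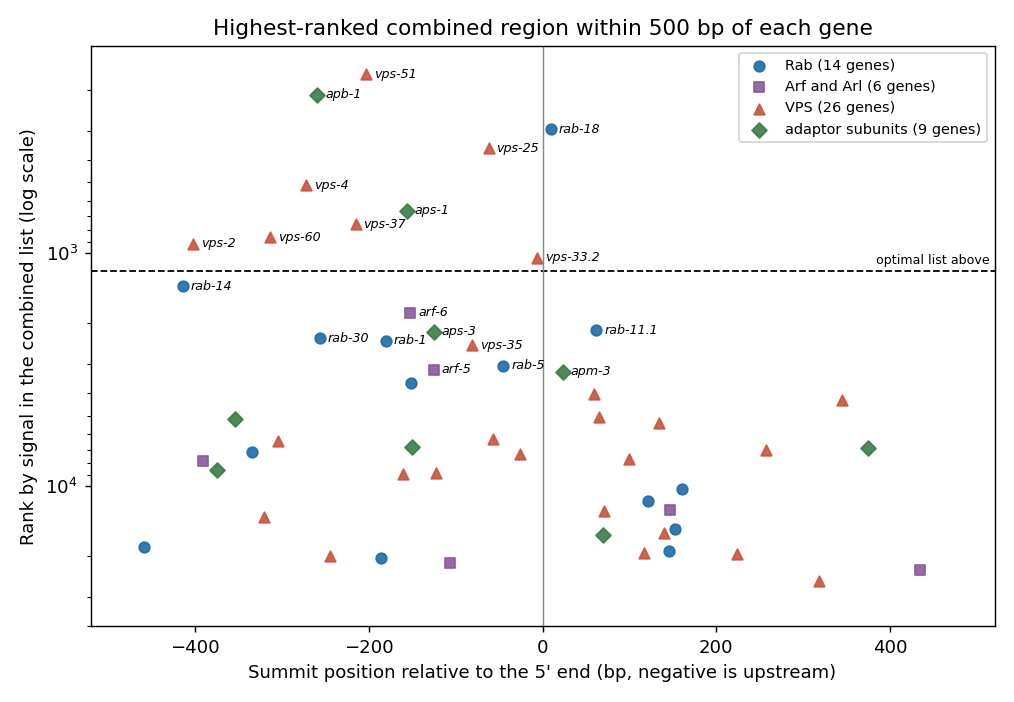
Each point is 1 of the 55 genes with a combined summit within 500 bp, at the position of its highest-ranked region (horizontal, bp from the 5′ end) and the rank of that region (vertical, log scale, strongest at the top). Above the dashed line at rank 1205 are the 10 bound genes, of which rab-18 alone lies downstream of its 5′ end, and rab-14 at rank 1395 is the first gene below it.

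Ranks in the replicates were compared at the 10 bound genes, using for each its nearest optimal peak. In replicate 1, 9 of the 10 overlapped a region within the first 1205, and in replicate 2, 7 did. Both held for 6: vps-51, apb-1, rab-18, vps-4, vps-37 and vps-25. The vps-60 region was past rank 1205 in replicate 1, and those of aps-1, vps-2 and vps-33.2 in replicate 2. Replicate summits lay 2 to 39 bp from the optimal one in replicate 1 and 0 to 150 bp in replicate 2. When each replicate was read alone, by its 1205 strongest regions, 9 of the 71 genes were within 500 bp of a summit in replicate 1 (all genes 5.33%) and 10 in replicate 2 (all genes 5.51%). Replicate 2 alone added arf-6, aps-3 and rab-7. Both replicates reached 6 of the 71 genes in this way, against 4.2% of all genes. The optimal list was itself selected for agreement between these replicates.

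**Figure D4:**
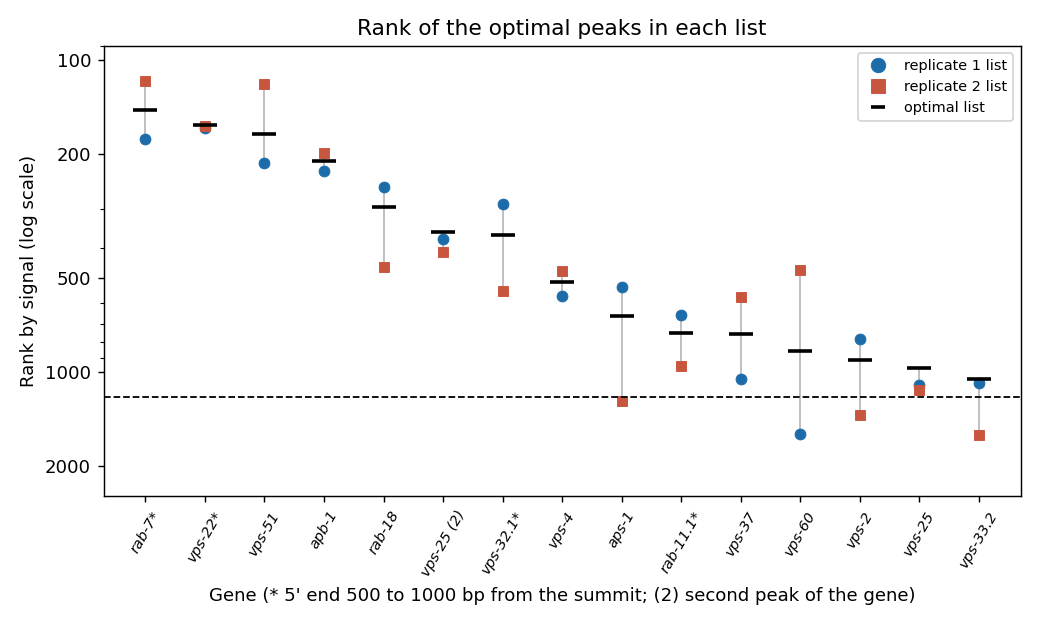
Ranks by signal (log scale, strongest at the top) of the 15 optimal peaks within 1000 bp of a member in the optimal list (bar) and of the overlapping regions in replicate 1 (circle) and replicate 2 (square), with a dashed line at rank 1205. Both replicates lie close together at vps-22 (165 and 163) and apb-1 (226 and 199), and far apart at vps-60 (1579 and 473).

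Bound and unbound genes were also sorted by the orientation of the upstream neighbour, which the choice of members did not use. An overlapping gene that reached further upstream counted as such a neighbour, as epg-5 did for vps-33.2. For 32 of the 71 genes the nearest upstream protein-coding gene was on the opposite strand, and 9 of these were bound (28.1%). For 39 it was on the same strand, and 1 was bound (vps-37, 2.56%). Over all protein-coding genes the shares were 8.85% and 2.65%. Neighbours of both kinds were closer than over all genes, at a median of 190 against 785 bp on the same strand and 632 against 1175 bp on the opposite strand. With an opposite-strand neighbour, 6 of 14 VPS genes, 2 of 6 adaptor genes, 1 of 10 Rab genes and 0 of 2 Arf and Arl genes were bound. With a same-strand one it was 1 of 17, 0 of 5, 0 of 10 and 0 of 7. A peak between divergent genes can count for both, here and over all genes, which favours the opposite-strand share by construction. Of the 9 genes, aps-1 and vps-2 were lost when only the nearest gene was counted. The orientation counts were not tested.

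**Figure D5:**
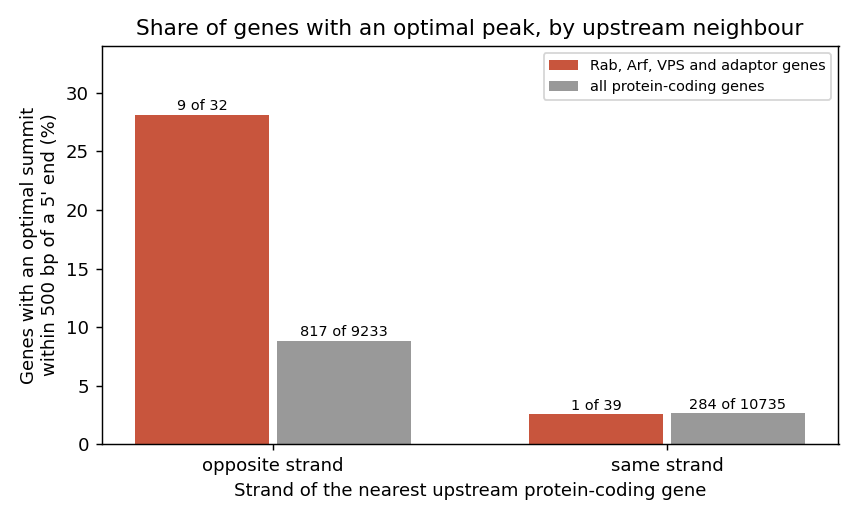
Bars show the percentage of genes with an optimal summit within 500 bp, by the strand of the nearest upstream protein-coding gene, for the 71 genes and for all protein-coding genes, with counts above. For the 71 genes the bars stand at 28.1% (9 of 32) and 2.56% (1 of 39).

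Several bound genes shared their peak. At 5 of the 10 the nearest optimal peak had the 5′ end of another protein-coding gene within 500 bp: lin-35 with vps-51, uba-2 with vps-25, kbp-4 with rab-18, rpt-2 with aps-1 and tiar-2 with vps-2. Over all 1101 bound genes 53.8% shared their nearest peak. The other gene was nearer at aps-1 (145 against 156 bp) and vps-2 (67 against 402 bp). The 5 without such a gene were apb-1, vps-4, vps-37, vps-60 and vps-33.2.

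Of the 3 words of 8 bases, AGACGCAG was within 50 bp of the summit at vps-60, GCAAACAC at vps-37 and at the weaker vps-25 peak, and GCTGGCGC at vps-4 and, outside the window, vps-22. At least 1 of the 3 occurred in 4 of the 11 peaks (36.4%), against 24.3% of the 818 promoter peaks and 3.17% of 8491 weaker promoter regions. The words were searched on both strands. They were chosen as frequent at the summits of optimal peaks, so setting promoter peaks against weaker regions is no independent comparison. Singly, AGACGCAG was in 8.44% of the 818 promoter peaks, GCAAACAC in 8.92% and GCTGGCGC in 7.7%. The GCTGGCGC word shares the letters GCGC with the word CGCGC, so their matches can overlap.

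The 5-base word CGCGC was in 7 of the 11 peaks (63.6%), against 39.7% of promoter peaks and 8.23% of weaker promoter regions. In the 583 promoter peaks with a GC content between that of the lowest and the highest of the 11 (25.7 and 50.5%), it was in 37.2%. The median GC content of the 11 windows was 42.6%, below the 46.5% of promoter peaks and above the 37.6% of weaker promoter regions. Weaker regions were not matched for GC content. As CGCGC too was chosen in optimal peaks, its share in promoter peaks against weaker regions is no independent comparison. The peaks without CGCGC were those of vps-51, vps-60 and vps-33.2 and the stronger one of vps-25.

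Other genes of membrane traffic, taken from 6 lists, were counted the same way. Of 105 listed genes all but 4 were found in the annotation, and 17 of those found were bound (16.8%), against 5.51% of all protein-coding genes. These lists too were drawn up with earlier results known. The exocyst, which tethers vesicles to the plasma membrane, counted 4 of 8: exoc-7 (rank 323), sec-15 (369), sec-3 (614) and sec-5 (701). Rab regulators and escorts counted 5 of 31, with rbg-3 at rank 14, the strongest peak of the 17, which it shared with the ribosomal protein gene rps-0. The others were rme-4 (585), ccz-1 (824), rbg-2 (850) and tbc-14 (1133). The SNAREs and their partners counted 4 of 28 (syx-5, nsf-1, sly-1 and nbet-1), sorting nexins 1 of 8 (snx-13) and Arf regulators 1 of 7 (grp-1). The partners of ESCRT and clathrin counted 2 of 19: dyn-1, which encodes dynamin, and dpy-23, which encodes the medium subunit of adaptor complex 2 and is missed by the symbol rule. The dpy-23 summit, at rank 1113, had position -347 bp. Outside the exocyst, another gene was nearer to the summit at syx-5 (F55A11.1) and grp-1 (K06H7.7). Peaks at ccz-1, rbg-2, snx-13, sly-1 and nbet-1 were also shared, with the listed gene nearer. Those at rme-4, tbc-14, nsf-1, dyn-1 and dpy-23 had no other protein-coding 5′ end within 500 bp.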

How the data were processed

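ChIP-seq region lists from 2 biological replicates, which form 1 group, were used. Regions were called by the authors against a control alignment, and the optimal list came from a threshold on the irreproducible discovery rate, per the companion text deposited by the authors. For the caller, the aligner and the thresholds, names and values were not given in the labels or companion text. The signal (column 7) was deposited by the authors on a scale set by each calling run, so only ranks within a list were used. The summit came from column 10. The ce10 lists were not used.

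Distances were computed in Python 3.11.15 from summits to all transcript 5′ ends of Ensembl release 115 on the 6 nuclear chromosomes. Every ce11 region lay inside the chromosomes of the RefSeq WBcel235 sequence. Where ranks in a replicate are given for an optimal peak, they are those of the strongest overlapping region. Intervals are exact 95% binomial intervals (SciPy 1.17.1). Words of 8 bases were ranked by the number of optimal peaks that held them only within 50 bp of the summit minus the number that held them only 200 to 250 bp away, over 1190 optimal peaks more than 1000 bp from a member. The first 3 that shared no 4-base stretch were kept. The 5-base word was chosen the same way, after the longer words had been seen.

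The members, lists and words were chosen with earlier results of these data known. Named genes were those with an optimal summit within 1000 bp, those sharing such a peak, and the strongest of the rest per family. Genes named beyond that were chosen after their values were seen. No test was run: there is 1 group, and genes are not replicates. The distance code was tested on planted summits. Alternatives covered windows of 250 and 1000 bp, stronger peaks, nearest genes, outermost 5′ ends, upstream summits and each replicate alone. The sequences under the other bound peaks are not reported here.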

Additional observations from a re-analysis of the deposited data

How the results depend on the processing

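The count of 10 bound genes was 6 with a 250 bp window, which dropped apb-1, vps-2, vps-4 and vps-60, and 14 with a 1000 bp window, which added rab-7, rab-11.1, vps-22 and vps-32.1. It was 5 in the 602 optimal peaks with the higher signal, 8 with 1 gene per peak, the nearest, and 10 with the outermost 5′ ends or upstream summits alone. Without a replicate it ranged from 9 to 10. Requiring the 1205 strongest regions of each replicate, a check added once the values were known, gave 6. Rab genes counted 3 in place of 1 with 1000 bp, and 1 to 2 without a replicate. Arf and Arl genes counted 0 to 1 without a replicate. VPS genes counted 4 in place of 7 with 250 bp, 3 in the stronger peaks, 5 to 6 without a replicate and 4 in both replicates. Adaptor genes counted 1 in place of 2 with 250 bp, in the stronger peaks, with the nearest gene only and in both replicates. The share of all protein-coding genes moved too: 3.71% with 250 bp and 3.08% in the stronger peaks. It was 6.89% with 1000 bp, 4.04% with the nearest gene only, 5.28% with outermost 5′ ends and 5.23% with upstream summits. In the 1205 strongest regions of both replicates it was 4.2%. Only the share in the stronger peaks moved by over 1.5 times from 5.51%. Fewer peaks or a shorter distance give lower counts by construction. No paired analysis was possible because there is 1 group. Depth is unknown, and weak regions of the relaxed lists include background.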
